A study of Homo sapiens with 4 samples.

Results

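The genes described here encode the proteasome: every gene of the deposited table whose symbol is PSMA, PSMB, PSMC, PSMD, PSME, PSMF or PSMG followed by a number. The rule found 48 of the 19970 genes in the table, and it used no measured value. RNA came from COLO205, an established human colon adenocarcinoma line, and was measured by RNA sequencing. In the NP group, 2 samples received nonylphenol at 1 µM for 24 h, and in the control group 2 samples received the solvent DMSO. Nonylphenol (NP) is an alkylphenol with estrogenic activity, and the study asked how it changes the transcriptome of colorectal cancer cells. Only this cell line, dose and time point were sequenced, and whether the replicates were cultured separately is not stated. The p-values therefore reflect only how far these samples scatter, and that scatter may be technical. In bulk RNA, fewer cells expressing a gene and less RNA per cell cannot be told apart.

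The proteasome is the main protease for ubiquitin-tagged proteins in the cytosol and nucleus. Its barrel-shaped 20S core has outer rings of alpha subunits, which gate the entrance, and inner rings of beta subunits, which carry the proteolytic sites. A 19S cap binds the tagged protein, removes the ubiquitin, and unfolds and threads the chain with a ring of ATPases. Interferon can exchange the catalytic beta subunits for immunoproteasome forms that favour the production of peptides for MHC class I. When proteasome activity is limiting, the transcription factor NFE2L1 is known to raise the transcription of most of these subunits together.

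The counts per sample summed to between 13401691 and 16998129. Replicates scattered beyond what counting alone gives: the chi-square per gene, which is 1 for pure counting error, was 1.94 for the control pair and 1.88 for the NP pair over all genes, and 2.18 and 2.20 over the 46 proteasome genes tested. All 11 markers of colon epithelium passed the filter on low counts and summed to 7375 to 7434 CPM (CPM is the read count scaled to a library of 1e6 reads, with TMM factors), although KRT20, CDX1 and CDX2 were low. Of the leukocyte markers PTPRC and CD3E, and of the fibroblast markers COL1A2 and COL3A1, had no count in any sample. In the same lists COL1A1 had 41 to 56 reads per sample, PDGFRB 27 to 45, LUM 4 to 10 and CD14 12 to 33. The 6 fibroblast markers summed to 5.67 to 6.11 CPM and the 4 endothelial markers to 0.149 to 0.354 CPM. The 6 leukocyte markers summed to 329.7 to 367.0 CPM, nearly all of it LYZ, which encodes lysozyme and was higher in NP samples by 0.11 on the log2 scale (edgeR adjusted p = 0.0466). This call was marginal: it was lost in edgeR with RLE scaling (adjusted p = 0.0525), with library size only (adjusted p = 0.0663) and with offsets for transcript length (adjusted p = 0.306), and in DESeq2 (adjusted p = 0.197). With 1 sample left out LYZ passed only without NP replicate 2, and its log2 fold change ranged from 0.072 to 0.14. Whether LYZ has any part in the results below was not tested.

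The 48 genes together took a slightly larger part of the reads in NP samples. They held 0.387% and 0.393% of the counts in control samples 1 and 2, with 95% Wilson intervals of 0.383% to 0.390% and 0.390% to 0.396%. In NP samples 1 and 2 they held 0.407% of the counts in each, with intervals of 0.404% to 0.410% and 0.404% to 0.411%. The intervals cover counting error only. Both NP samples thus lay above both control samples.

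Of the 48 genes, 46 had enough counts to be tested and 2 were higher in NP samples at an adjusted p under 0.05 (edgeR's quasi-likelihood test, adjusted over the 12616 genes tested). This is 4.35% of the tested members, against 2.35% of all tested genes, so the share of calls was near the background. By edgeR no member was lower at the adjusted threshold (against 1.70% of all tested genes) or at an unadjusted p under 0.05 (against 6.97%). DESeq2 gave an adjusted p to 35 members and called none, against 2.28% of genes called higher and 1.5% called lower. At an unadjusted p under 0.05 it had 5 of these 35 higher (14.3%, against 6.51%). The fitted changes of the members were small and mostly of one sign. The median log2 fold change was 0.085, or 6.08%, over the 46 members and 0.0015 over all tested genes. Its quartiles were 0.021 and 0.15 for the members and -0.081 and 0.084 for all genes. The fitted change lay above 0 in 38 of 46 members (82.6%, against 50.5% of all tested genes). In 17 members (37.0%, against 8.17%) it was higher at an unadjusted p under 0.05. Both NP samples exceeded both control samples in 22 members (47.8%, against 22.5%) and lay below both in 3 (6.52%, against 21.7%). These genes share the same 4 libraries, so they are not independent of each other.

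**Figure D1:**
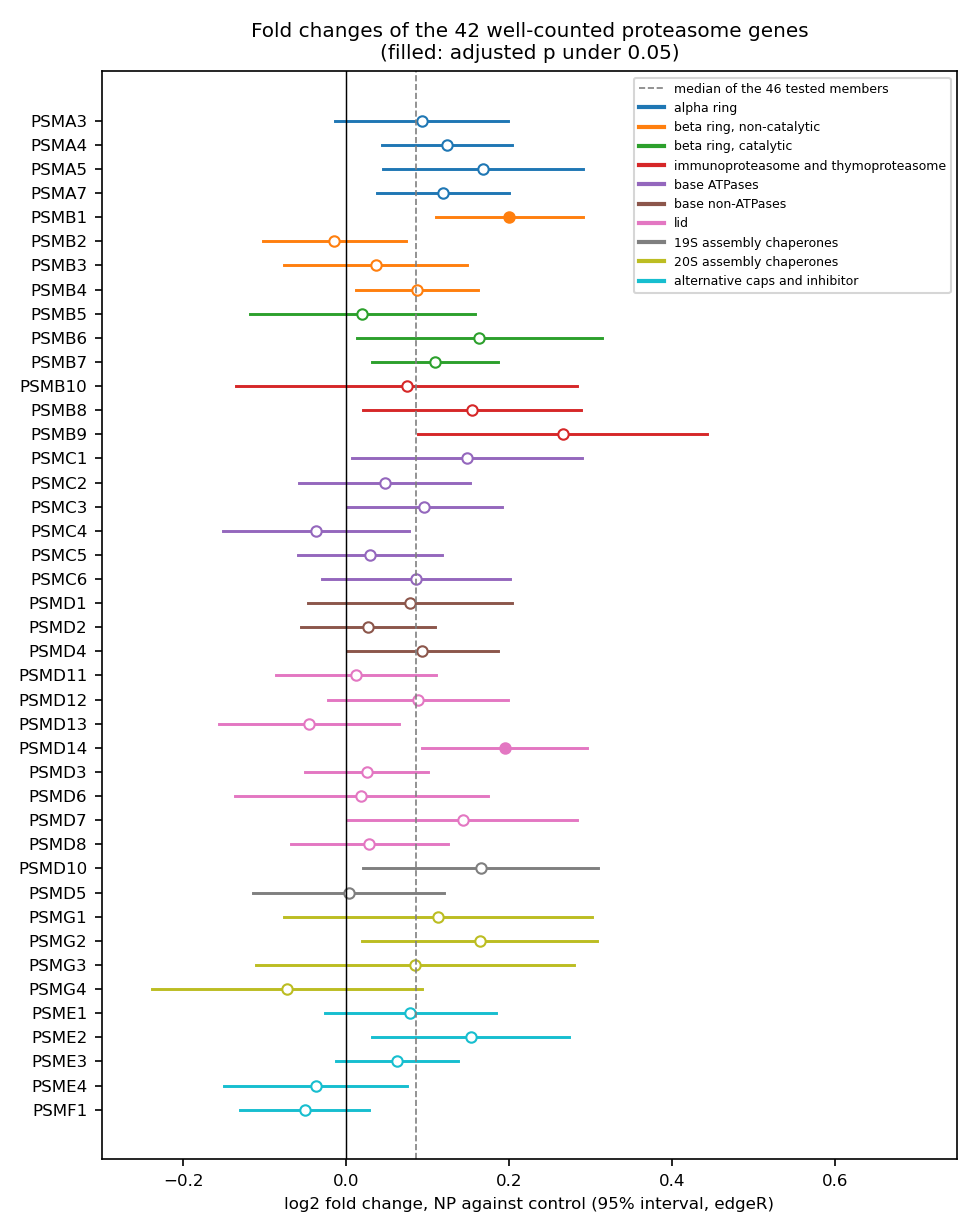
Log2 fold change of NP against control for the 42 proteasome genes that averaged at least 300 counts per sample, with 95% intervals from edgeR on the horizontal axis, 1 gene per line, coloured by role. Filled points passed an adjusted p of 0.05 (PSMB1 and PSMD14), and the dashed line is the median of 0.085 over the 46 tested members.

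The genes that passed were PSMB1 and PSMD14. PSMB1 encodes a beta subunit without a proteolytic site. It was measured at 119.4 and 125.2 CPM in control samples 1 and 2 and at 135.5 and 146.1 CPM in NP samples 1 and 2. The NP samples were both higher, without overlap. The difference was 0.20 on the log2 scale (standard error 0.045, edgeR adjusted p = 0.00277). PSMD14 encodes the deubiquitinase of the 19S lid, which cuts ubiquitin chains off the substrate. It went from 84.7 and 88.5 CPM in the control samples to 97.4 and 100.9 CPM in the NP samples, again without overlap. Its log2 fold change was 0.19 (standard error 0.051, edgeR adjusted p = 0.0129). Both calls depended on single samples, while the fold changes moved less. Without control replicate 1 the log2 fold change was 0.17 for PSMB1 (edgeR adjusted p = 0.151) and 0.16 for PSMD14 (edgeR adjusted p = 0.251). Without NP replicate 2 it was 0.15 (edgeR adjusted p = 0.147) and 0.17 (edgeR adjusted p = 0.139). Leaving out control replicate 1 also lowered the count of higher genes over the whole table from 297 to 104. With offsets for transcript length PSMB1 was at 0.12 (edgeR adjusted p = 0.124), while PSMD14 still passed at 0.17 (edgeR adjusted p = 0.0327). In DESeq2 the log2 fold changes were 0.20 and 0.19, with an adjusted p of 0.0562 for PSMB1 and 0.139 for PSMD14.

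The promoters of the members were searched for motifs, to describe sequence features that the rule did not use. RefSeq windows on GRCh38.p14, from 250 bases before to 50 bases after a start site, were found for 42 of the 48 genes. PSMA7, PSMB1, PSMB6, PSMB7, PSMD4 and PSMG3 had no entry. The letters TGACNNNGC, the core of the antioxidant response element that NFE2L1 and NFE2L2 can bind, were found on either strand in 15 of 42 member genes (35.7%, against 16.1% of 27305 genes with a window). CCAAT, the motif of NF-Y, was found on either strand in 20 of 42 (47.6%, against 39.7%). The median log2 fold change was 0.079 in the 15 tested members with TGACNNNGC and 0.062 in the 25 without. It was 0.093 in the 19 tested members with CCAAT and 0.074 in the 21 without. A match is a run of letters and was not tested as a binding site.

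The 250 bases before the start are shown for 3 genes, with matches to either motif in capitals. PSMD14 is the called gene that has an entry, PSMB9 had the largest log2 fold change of the well-counted members, and PSMA4 had the smallest p of the members that did not pass. The genes lie on the plus strand, at chr2:161308175-161308424 for PSMD14, at chr6:32853942-32854191 for PSMB9 and at chr15:78540536-78540785 for PSMA4.
PSMD14: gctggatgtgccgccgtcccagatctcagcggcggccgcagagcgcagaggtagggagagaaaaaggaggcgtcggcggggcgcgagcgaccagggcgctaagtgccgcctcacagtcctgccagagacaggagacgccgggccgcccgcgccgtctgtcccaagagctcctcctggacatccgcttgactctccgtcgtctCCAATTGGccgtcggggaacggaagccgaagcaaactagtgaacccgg
PSMB9: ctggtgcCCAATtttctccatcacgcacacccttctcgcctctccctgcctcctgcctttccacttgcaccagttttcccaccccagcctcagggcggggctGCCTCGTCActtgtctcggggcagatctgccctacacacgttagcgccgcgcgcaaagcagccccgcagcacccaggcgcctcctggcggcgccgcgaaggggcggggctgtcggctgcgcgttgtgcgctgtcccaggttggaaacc
PSMA4: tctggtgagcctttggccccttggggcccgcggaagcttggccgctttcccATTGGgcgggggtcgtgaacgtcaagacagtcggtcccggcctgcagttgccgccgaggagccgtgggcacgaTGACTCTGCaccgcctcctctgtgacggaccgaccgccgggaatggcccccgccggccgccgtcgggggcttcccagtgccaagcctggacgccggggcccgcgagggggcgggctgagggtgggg
In PSMD14 a match on each strand overlaps its neighbour, beginning 48 and 45 bases before the start, and no TGACNNNGC was found. PSMB9 holds a TGACNNNGC match on the minus strand, which begins 148 bases before the start. PSMA4 has 3 listed starts, and only the window shown, that of the most downstream start, holds a match to either motif. Its TGACNNNGC match begins 126 bases before the start.

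In the alpha ring, 7 of 8 genes were tested and none passed. At an unadjusted p under 0.05, 3 were higher, namely PSMA4, PSMA5 and PSMA7 (against 8.17% of all tested genes). That share was 15.4% for transcripts up to 2000 nt, such as that of PSMA7. It was 5.83% for longer ones, such as those of PSMA4 and PSMA5. PSMA4 was at 165.1 and 171.9 CPM in the control samples and at 184.3 and 182.8 CPM in the NP samples. The NP samples were both higher, and the log2 fold change was 0.12 (standard error 0.040, edgeR adjusted p = 0.0637). With the length offsets it passed, at 0.14 (edgeR adjusted p = 0.0217). PSMA7, which on the deposited FPKM scale had the highest level of all members, was at 172.8 and 188.7 CPM in control and 199.9 and 192.2 CPM in NP samples. Its groups did not overlap, with a log2 fold change of 0.12 (edgeR adjusted p = 0.0885) that was 0.18 without control replicate 2 (edgeR adjusted p = 0.0202) and 0.055 without control replicate 1 (edgeR adjusted p = 0.737). PSMA5 had a log2 fold change of 0.17 (edgeR adjusted p = 0.121) and PSMA3 one of 0.093 (edgeR adjusted p = 0.426). PSMA8, an alpha subunit of germ cells, had no read in any sample, which allows up to 3 counts in 61677544, or 0.0486 CPM.

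Among the beta subunits without a proteolytic site, PSMB1 passed and the other 3 did not. PSMB4 was at 201.7 and 207.2 CPM in control and 218.6 and 215.6 CPM in NP samples, a log2 fold change of 0.087 (edgeR adjusted p = 0.227). PSMB2 and PSMB3 had overlapping groups, with log2 fold changes of -0.015 (95% interval from -0.10 to 0.073) and 0.036 (-0.077 to 0.15). The neighbours of the same ring thus spanned a range from about 0 to 0.20, and no test was made of the differences between them. None of the 3 constitutive catalytic subunits passed. PSMB7, with the trypsin-like site, was at 186.5 and 182.0 CPM in control and 196.7 and 200.8 CPM in NP samples, which is 0.11 on the log2 scale (standard error 0.039, edgeR adjusted p = 0.108). PSMB6, with the caspase-like site, had a log2 fold change of 0.16 (edgeR adjusted p = 0.269) and no overlap between the groups. PSMB5 carries the chymotrypsin-like site, which bortezomib binds. Its CPM of 57.8 and 54.5 in control samples lay between those of NP samples 1 and 2, 52.1 and 62.4, and its log2 fold change was 0.020 (95% interval from -0.12 to 0.16).

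**Figure D2:**
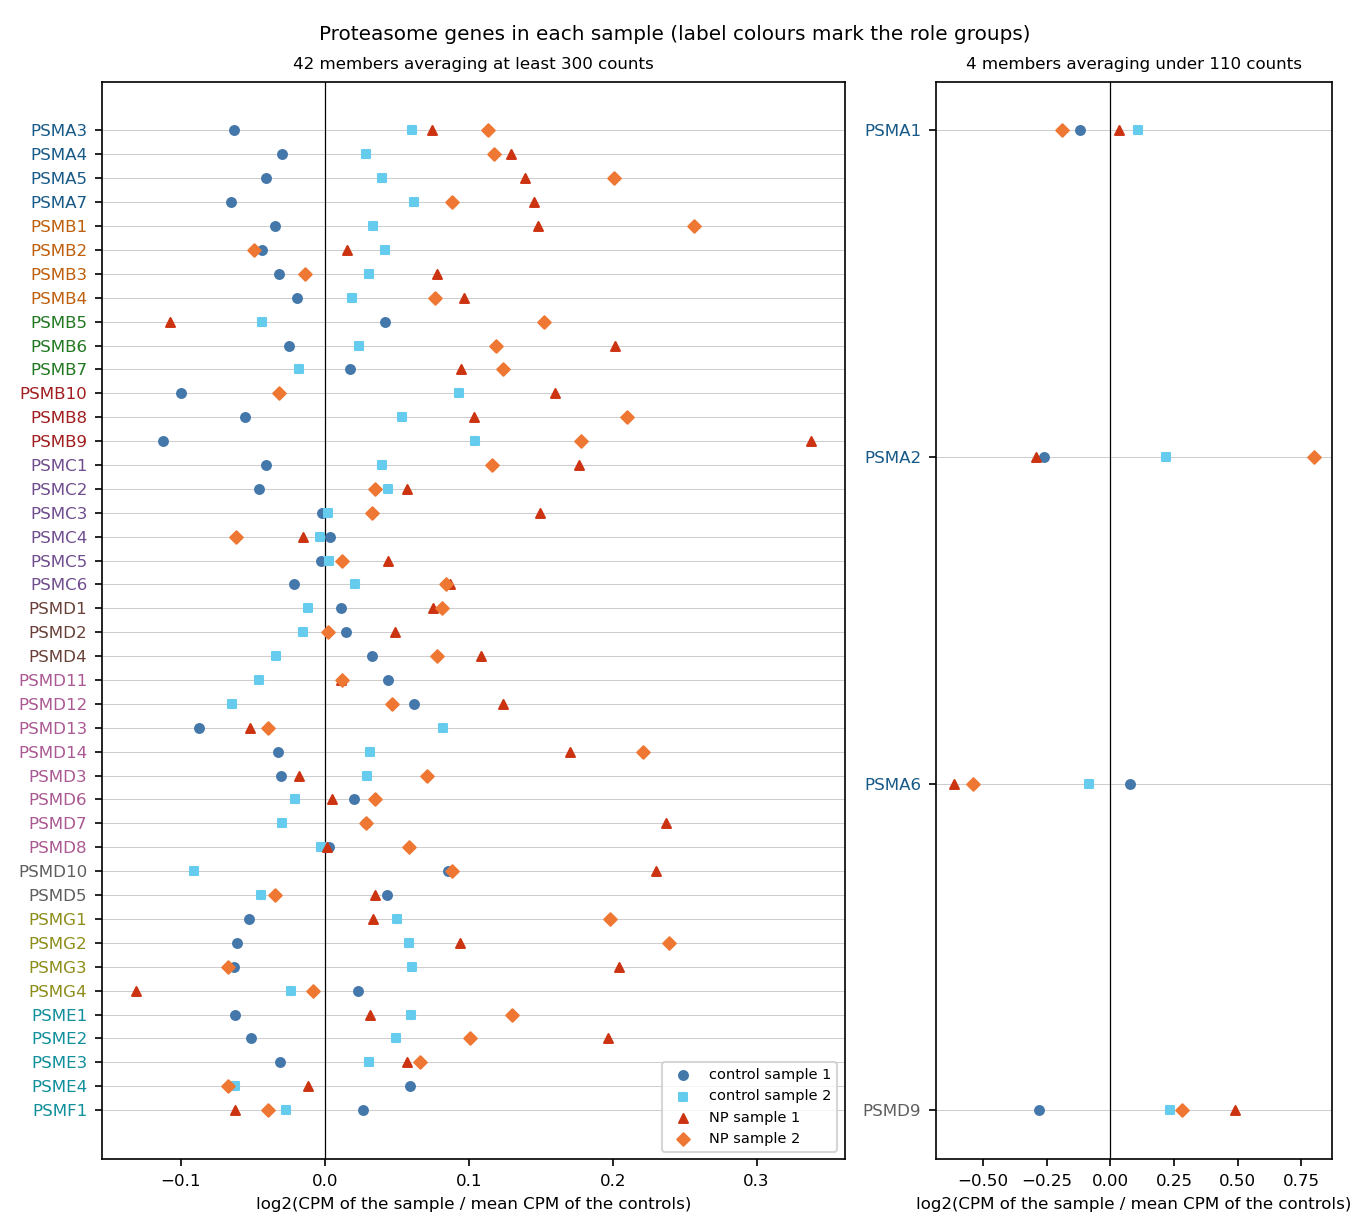
Log2 ratio of the CPM of each sample to the mean CPM of the control samples (horizontal axis) for the 46 tested proteasome genes, 1 gene per line, with the 4 genes that averaged under 110 counts in their own panel and on their own scale. Both NP samples lie above both control samples in 22 genes and below both in 3 (PSMC4, PSMF1 and PSMA6).

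The immunoproteasome subunits PSMB8, PSMB9 and PSMB10 replace PSMB5, PSMB6 and PSMB7 in that order. PSMB9 was at 25.3 and 29.4 CPM in control samples 1 and 2 and at 34.6 and 31.0 CPM in NP samples 1 and 2. The NP samples were both higher, and the log2 fold change of 0.27 was the largest among the 42 members that averaged at least 300 counts (standard error 0.089, edgeR adjusted p = 0.0771). It was 0.16 without control replicate 1 (edgeR adjusted p = 0.616), 0.18 without NP replicate 1 (edgeR adjusted p = 0.584), 0.38 without control replicate 2 (edgeR adjusted p = 0.0362) and 0.34 without NP replicate 2 (edgeR adjusted p = 0.0496). PSMB8 went from 50.1 and 54.0 to 56.0 and 60.2 CPM, a log2 fold change of 0.15 (edgeR adjusted p = 0.229). In the deposited table the ends of PSMB8 and PSMB9 overlap on opposite strands. It is not stated whether counting used the strand, so reads of the shared stretch are uncertain. In GENCODE release 29, exons of other genes on either strand cover 0% of the principal transcript of each. PSMB10 had overlapping groups, with a log2 fold change of 0.074 (95% interval from -0.13 to 0.28). PSMB11, the thymic form, had 2 reads in control sample 1 and none in the other samples.

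Relative to the constitutive counterpart, the immunoproteasome subunits showed no separation of the groups. On the deposited FPKM scale the ratio of PSMB8 to PSMB5 was 0.386 and 0.442 in control samples and 0.478 and 0.430 in NP samples. The ratio of PSMB9 to PSMB6 was 0.289 and 0.325 in control and 0.338 and 0.321 in NP samples. The ratio of PSMB10 to PSMB7 was the lowest, at 0.113 and 0.132 in control and 0.128 and 0.110 in NP samples. In each pair, the value of at least 1 NP sample lay within the range of the control samples or below it. The 3 immunoproteasome forms made up 16.7% and 18.7% of the summed FPKM of all 6 catalytic genes in control samples and 18.9% and 17.6% in NP samples. With 2 samples per group no exact permutation test over samples can go below p = 0.333, so none was made. These ratios depend on the gene length used. Per kilobase of the principal transcript in GENCODE release 29, the share was between 24.9% and 27.8%, and the ratio of PSMB8 to PSMB5 was between 0.998 and 1.24.

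**Figure D3:**
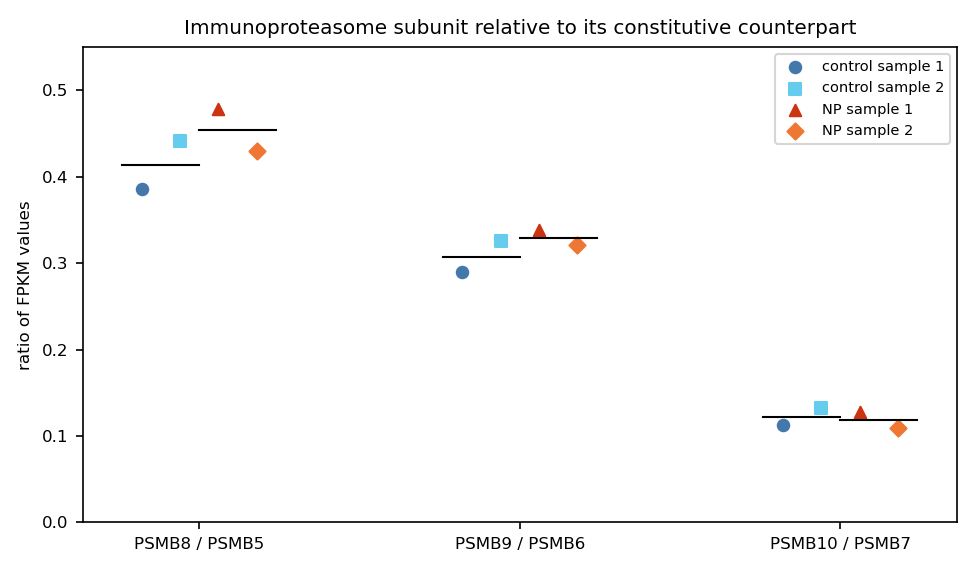
Ratio of the deposited FPKM of each immunoproteasome subunit to that of its constitutive counterpart (vertical axis, from 0) in the 4 samples, with short lines at the group means. The ratios are near 0.43, 0.32 and 0.12 from left to right, and control and NP samples overlap in every pair.

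In the 19S base, none of the 6 ATPases passed. PSMC1 was at 43.3 and 45.8 CPM in control and 50.3 and 48.3 CPM in NP samples, a log2 fold change of 0.15 (edgeR adjusted p = 0.293). In GENCODE release 29, 82.1% of its principal transcript lies opposite exons of other genes, chiefly NRDE2, so its reads are uncertain if strand was not used. PSMC3 had a log2 fold change of 0.096 (edgeR adjusted p = 0.325), which ranged from 0.033 to 0.15 with 1 sample left out, and PSMC4, whose NP samples both lay below the control samples, one of -0.037 (95% interval from -0.15 to 0.077). Of the base subunits that are not ATPases, PSMD4, a ubiquitin receptor, was at 113.2 and 108.1 CPM in control and 119.3 and 116.8 CPM in NP samples, a log2 fold change of 0.094 (edgeR adjusted p = 0.324). The scaffold subunits PSMD1 and PSMD2 were at 0.078 and 0.027 (edgeR adjusted p = 0.622 and 0.837).

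The lid had 8 members, of which PSMD14 alone passed. The log2 fold change was above 0 in 7 of them (against 50.5% of all tested genes), and its median was 0.027. PSMD7, the inactive partner of PSMD14 in the lid, had a log2 fold change of 0.14 (edgeR adjusted p = 0.318) that rested on NP sample 1, with 57.1 CPM against 47.5 to 49.5 CPM in the other 3 samples. PSMD3, the lid gene with the most counts, had 225.4 and 234.9 CPM in control and 227.3 and 241.8 CPM in NP samples, and the groups overlapped. Its log2 fold change was 0.025 (95% interval from -0.050 to 0.10). PSMD13 had the lowest log2 fold change of the lid at -0.046 (95% interval from -0.16 to 0.064), and PSMD6, the lid gene with the lowest FPKM, was at 0.018.

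Chaperones that assist assembly and then leave were not called. PSMD10, also known as gankyrin, was at 48.3 and 42.8 CPM in control and 53.4 and 48.4 CPM in NP samples, a log2 fold change of 0.17 (edgeR adjusted p = 0.234). NP sample 2 exceeded control sample 1 by only 0.096 CPM, and with 1 sample left out the log2 fold change ranged from 0.077 to 0.25. PSMD5 had a log2 fold change of 0.0028 (95% interval from -0.11 to 0.12). PSMG2, of the chaperones that start the alpha ring, was at 42.7 and 46.4 CPM in control and 47.6 and 52.6 CPM in NP samples, a log2 fold change of 0.16 (edgeR adjusted p = 0.240) that ranged from 0.094 to 0.24 with 1 sample left out. PSMG4 lay at the other end of that group with -0.073 (95% interval from -0.24 to 0.094).

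The alternative caps open the core without ATP or ubiquitin. PSME1 and PSME2 form the interferon-inducible PA28 cap. PSME2 was at 60.8 and 65.2 CPM in control and 72.2 and 67.5 CPM in NP samples, and its log2 fold change was 0.15 (standard error 0.061, edgeR adjusted p = 0.168). PSME1 had overlapping groups and a log2 fold change of 0.079 (edgeR adjusted p = 0.525). PSME4, which encodes the nuclear cap PA200, and PSMF1, which encodes PI31, a protein that inhibits the core in vitro, had log2 fold changes of -0.038 and -0.051 (95% intervals from -0.15 to 0.074 and from -0.13 to 0.028). Both NP samples of PSMF1, at 177.3 and 180.2 CPM, lay below both control samples, at 188.6 and 181.7 CPM.

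Subunits that stand in the same particle differed widely in measured level. On the deposited FPKM scale, averaged over the 4 samples, PSMA7, PSMB7 and PSMB4 were highest with 107.5, 107.0 and 99.1. The lowest of the constitutive subunits were PSMA1 with 1.96, PSMA6 with 0.348 and PSMA2 with 0.295, together with the assembly chaperone PSMD9 with 0.315. PSMA1, PSMA2 and PSMA6 encode alpha subunits that every 20S core contains. PSMA6 had 45 and 40 reads in control samples and 30 and 25 in NP samples. PSMA2 had 18 and 25 reads in control and 19 and 32 in NP samples. PSMD9 had 31 and 44 reads in control and 57 and 39 in NP samples, and PSMA1 had 96 and 112 in control and 115 and 78 in NP samples. These were the 4 lowest of the 46 tested members. They also share exons with a gene on the same strand. In GENCODE release 29, exons of other same-strand genes cover 81.0% of the principal transcript of PSMA6, 53.2% of that of PSMA1, 52.5% of that of PSMA2 and 43.8% of that of PSMD9. The main partners are AL121594.1, AC018523.2, AC010132.3 and AC069503.2, which held 0 to 2 reads per sample in the table.

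**Figure D4:**
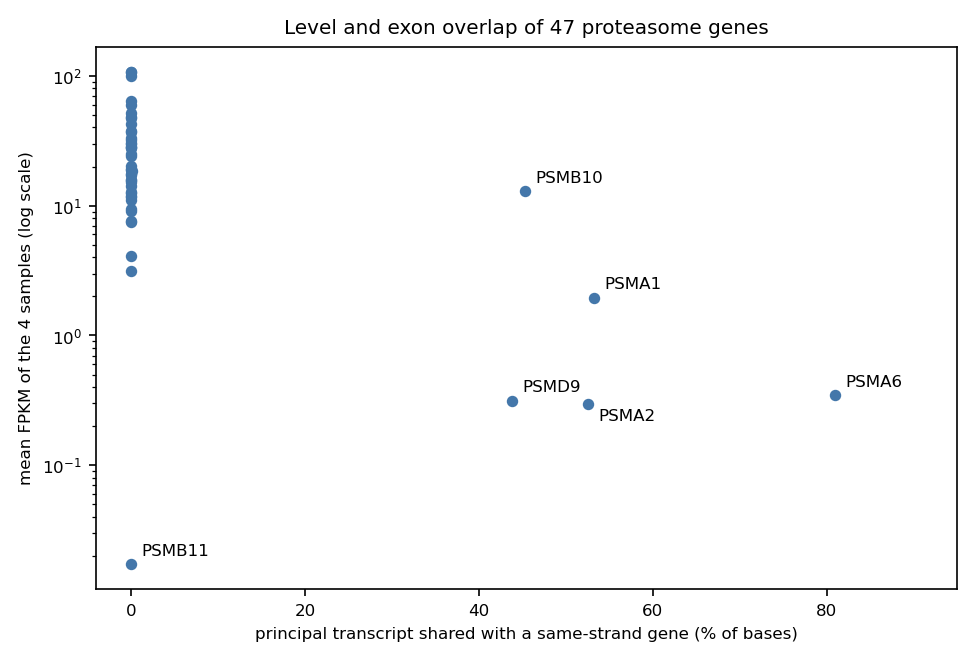
Mean deposited FPKM of the 4 samples (vertical axis, log scale) against the percent of bases of the principal transcript that exons of another gene on the same strand cover in GENCODE release 29, for the 47 proteasome genes above 0 FPKM. The 4 tested genes under 2 FPKM all lie at 43.8% or more, and PSMB10, at 45.3%, is the exception with 12.9 FPKM.

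Of the 46 tested members, 5 (10.9%, against 2.81% of all tested genes) had at least 40% of the transcript shared in this way. The exception was PSMB10, with 45.3% shared, which had 268 to 387 reads per sample and 12.9 FPKM. Over all tested genes, the median FPKM was 0.930 where at least 40% was shared and 6.00 where less was shared. How the counting treated reads that fall in 2 genes is not given in the sources used here, and the part of this overlap in the low counts was not tested. The fold changes of these 4 genes are correspondingly imprecise. PSMA6, with both NP samples below both control samples, had a log2 fold change of -0.58 (95% interval from -1.20 to 0.046, edgeR adjusted p = 0.387). PSMA2 was at 0.31 (-0.47 to 1.09), PSMD9 at 0.40 (-0.17 to 0.96) and PSMA1 at -0.064 (-0.42 to 0.30). Without these 4 genes the median log2 fold change of the remaining 42 members was still 0.085.

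The order of the levels also depended on length, since the table counts all exons of a gene while a single transcript is often shorter. PSME3 held rank 9 of 48 by FPKM and rank 2 per kilobase of the principal transcript. PSMG4 was at rank 42 and rank 25, and PSMB5 at rank 11 and rank 21. PSMA7, PSMB7 and PSMB4 were among the 4 highest on both scales, and PSMA1, PSMA2, PSMA6 and PSMD9 were the lowest tested members on both.

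Proteasome transcripts are short, and over the whole table shorter transcripts had the higher fold changes. The median principal transcript was 1566 nt among the 46 tested members and 3126 nt among all tested genes. Among the tested genes with transcripts up to 2000 nt, the median log2 fold change was 0.048 over 3088 genes and 0.090 over the 30 members of that class. In the class over 2000 nt it was -0.011 over 9523 genes and 0.063 over 16 members. The change lay above 0 in 25 of the 30 short members (83.3%, against 64.3% of all genes of the class) and in 13 of the 16 long ones (81.2%, against 46%). With offsets for transcript length the median of the members was 0.035, with 32 of 46 above 0, and that of all genes was -0.00033. Medians of the role groups fell with them, from 0.12 to 0.045 in the alpha ring, from 0.061 to -0.0053 in the non-catalytic beta subunits, from 0.11 to 0.033 in the catalytic ones and from 0.15 to 0.090 in the immunoproteasome forms. In the base ATPases it went from 0.066 to 0.053 and in the lid from 0.027 to 0.016. Across the 42 well-counted members, Pearson's r of the log2 fold change with log2 transcript length was -0.28 and Spearman's rho was -0.24. Over 12611 tested genes these values were -0.14 and -0.21. The points share the 4 libraries, and the correlations are descriptions.

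**Figure D5:**
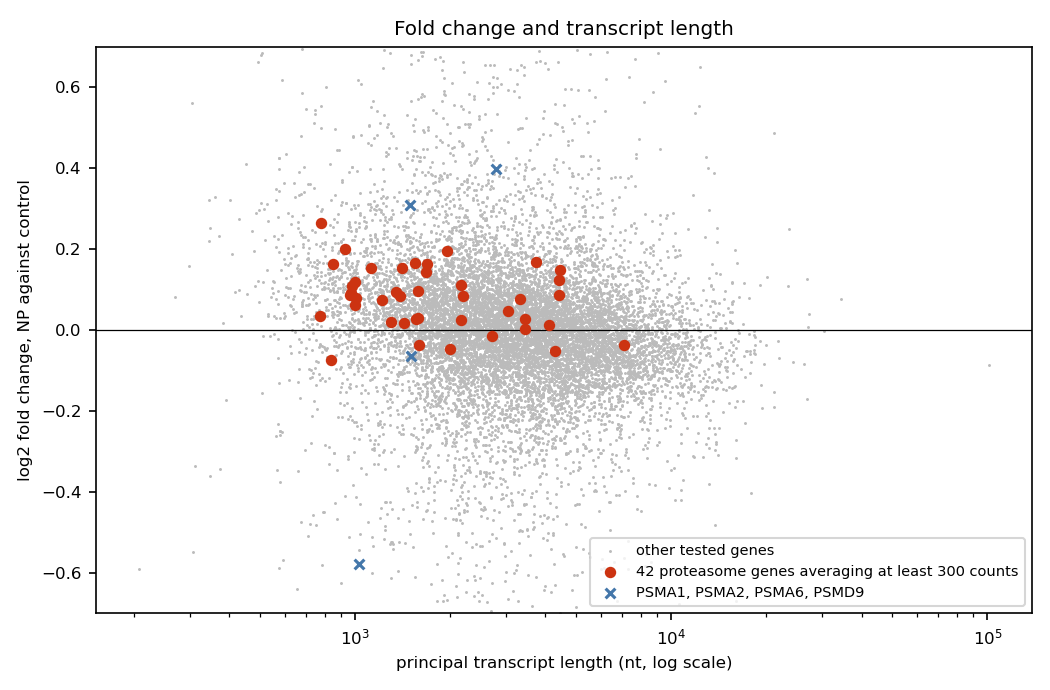
Log2 fold change of NP against control (vertical axis) against the length of the principal transcript in nt (horizontal axis, log scale) for all tested genes, with 210 genes beyond 0.7 in either direction left off the axis. The 42 well-counted proteasome genes lie mostly to the left of the cloud and above 0, and PSMA1, PSMA2, PSMA6 and PSMD9 are marked with crosses.

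The sample medians showed which samples carried the difference. Relative to the mean of each gene over the 4 samples, the median member lay at -0.062 and -0.023 on the log2 scale in control samples 1 and 2 and at 0.036 and 0.031 in NP samples 1 and 2. Control sample 1 stood lowest. Without control replicate 1 the median log2 fold change of the members was 0.059 and no member passed, and without control replicate 2 it was 0.090 and PSMA7, PSMB1, PSMB9 and PSMD14 passed. PSMB1 and PSMD14 passed without NP replicate 1, where the median was 0.074, and PSMB9 alone passed without NP replicate 2, where it was 0.077.

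Factors of the proteasome whose symbols fall outside the rule showed 2 higher and none lower among 12 (against 2.35% and 1.70% of all tested genes). Their median log2 fold change was 0.026, against 0.085 for the members, and 8 of the 12 lay above 0 (against 50.5% of all tested genes). SEM1, a small subunit of the lid, went from 39.7 and 41.7 CPM in control samples to 53.6 and 45.2 CPM in NP samples, which is 0.29 on the log2 scale (standard error 0.075, edgeR adjusted p = 0.0131). It did not pass without control replicate 1 or NP replicate 1 (edgeR adjusted p = 0.228 and 0.579, log2 fold change 0.25 and 0.15), nor with the length offsets (log2 fold change 0.23, edgeR adjusted p = 0.0575). POMP, the maturation factor of the 20S core, went from 186.3 and 183.0 to 200.8 and 204.1 CPM, a log2 fold change of 0.13 (edgeR adjusted p = 0.0317), and passed in none of the settings that left out 1 sample (edgeR adjusted p = 0.122 to 0.200) and not with the length offsets (0.080, edgeR adjusted p = 0.307). POMP did not pass in DESeq2 either (adjusted p = 0.182), which gave SEM1 no adjusted p, and neither gene passed in limma. The ubiquitin receptor ADRM1 had overlapping groups, with a log2 fold change of 0.026.

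Of 6 genes that encode ubiquitin or its activating enzymes, 2 were called higher and none lower (against 2.35% and 1.70% of all tested genes). UBB, a polyubiquitin gene, went from 51.4 and 59.5 CPM in control samples to 78.6 and 66.8 CPM in NP samples. The groups did not overlap, and the log2 fold change was 0.40 (standard error 0.067, edgeR adjusted p = 2.61e-05). It remained past the threshold with the length offsets (0.34, edgeR adjusted p = 0.000148) but not without control replicate 1 (0.29, edgeR adjusted p = 0.0520) or in DESeq2 (adjusted p = 0.192), nor in limma with either pseudocount (adjusted p = 0.113 and 0.0999). RPS27A, which encodes ubiquitin fused to a ribosomal protein, rose by 0.25 (standard error 0.031, edgeR adjusted p = 9.4e-09) and passed in every setting that left out 1 sample. UBB consists of near-identical repeats and RPS27A has processed pseudogenes, so their counts are uncertain.

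The NFE2L1 pathway showed no call among its 11 genes (against 2.35% called higher and 1.70% lower over all tested genes). Its median log2 fold change was -0.0042. NFE2L1 itself was at 1037 and 1001 CPM in control and 1047 and 1049 CPM in NP samples, a log2 fold change of 0.040 (95% interval from -0.013 to 0.094). DDI2, the protease that activates it, was at 0.025 (95% interval from -0.069 to 0.12). None of these genes was at an unadjusted p under 0.05 in edgeR. The list holds no proteasome subunit, these are RNA levels, and the activity of NFE2L1 was not tested. The 12 genes of ubiquitin shuttles and the p97 segregase had no call and a median of 0.020. In antigen processing, 1 of 12 genes was called higher and 1 lower (against 2.35% and 1.70% of all tested genes). HLA-B, a heavy chain of MHC class I whose reads can also match other HLA genes, had a log2 fold change of 0.13 (edgeR adjusted p = 0.00558), and NLRC5, the transactivator of MHC class I genes, had one of -0.16 (edgeR adjusted p = 0.0280). Without control replicate 1 neither passed (edgeR adjusted p = 0.126 and 0.0724), HLA-B also not without NP replicate 1 (edgeR adjusted p = 0.103), and NLRC5 also not without control replicate 2 or NP replicate 2 (edgeR adjusted p = 0.249 and 0.322). With the length offsets both calls were lost, at 0.089 for HLA-B (edgeR adjusted p = 0.0647) and -0.13 for NLRC5 (edgeR adjusted p = 0.0962). DESeq2 kept that of HLA-B (adjusted p = 0.0293) and lost that of NLRC5 (adjusted p = 0.189). In limma both were lost, HLA-B with an adjusted p of 0.108 and 0.102 and NLRC5 with 0.296 and 0.288 (pseudocounts of 1 and 0.1).

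Other large complexes were counted in the same way. Over all tested genes, 2.35% were called higher and 1.70% lower, 50.5% lay above 0, and the median was 0.0015. The COP9 signalosome, which resembles the lid in its subunits, had no call among 10 genes, a median log2 fold change of 0.039 and 7 genes above 0. The CCT chaperonin, a folding machine of stacked rings, had no call among 8 genes, a median of 0.039 and 6 above 0. Of 13 genes of eIF3, a translation initiation factor with the same kinds of domains as the lid, EIF3L alone passed (0.15, edgeR adjusted p = 0.0149, and in the settings that left out 1 sample only without NP replicate 2), and the median was 0.011 with 9 above 0. EIF3L did not pass in DESeq2 (adjusted p = 0.114) or in limma with either pseudocount (adjusted p = 0.128 and 0.124). The differences between these lists and the proteasome were not tested.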

How the data were processed

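COLO205 RNA was measured in 2 control and 2 NP samples, all of which were used. The deposited counts are whole reads per gene. For the upstream steps, HISAT2, HTSeq and GRCh38 are named in the submitters' processing notes. Their versions, the annotation release and the strand setting were not found in these sources. The authors also deposited FPKM, which can be recomputed from each count, the table's length column and the library total within 6.26e-12%. FPKM was used only for levels between genes and as an alternative. The members and gene lists were chosen with earlier results of these data known.

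Genes kept by filterByExpr (minimum count 10) were scaled with TMM and tested with the quasi-likelihood test of edgeR 4.0.16 (R 4.3.3), NP against control without other terms, with Benjamini-Hochberg adjustment over 12616 genes. The common dispersion was 0.0007043. Intervals are 95%, from the test's standard error. The fit was tested on simulated counts.

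Named were all called members, the catalytic pairs, the extremes of each role group in fold change and FPKM, untested members and up to 4 called genes per list. Other genes were named after their values were seen, as were the 3 promoters. For transcript length and exon overlap, GENCODE release 29 was used (principal isoforms). Of the table's genes 99.63% had their ID in it, and 99.54% of these lay at an overlapping position. Length offsets were lowess curves (span 0.3) of each sample on log2 length. Because they are fitted to all 4 samples, they also remove any part of an NP effect that follows length. Alternatives were DESeq2 1.42.0, limma 3.58.1 on log2(FPKM + 1) and log2(FPKM + 0.1), other scalings, filters and thresholds, and each sample left out. Counts per kilobase of the principal transcript, length classes and the median without PSMA1, PSMA2, PSMA6 and PSMD9 were added after the data were seen. Protein sequences were not used here. The result of 1 listed gene is not reported here.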

Additional observations from a re-analysis of the deposited data

How the results depend on the processing

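PSMB1 and PSMD14 passed in edgeR with other scalings, other filters and the exact test, which are close variants of the main fit. Neither passed in DESeq2 or limma, and with length offsets only PSMD14 did. The median log2 fold change of the members stayed above 0 in all 16 other settings. The count of members higher was 0 with DESeq2, with limma on log2(FPKM + 1) and with limma on log2(FPKM + 0.1), 0 to 4 with 1 sample left out, 1 at an adjusted p under 0.01, 5 at an adjusted p under 0.10 and 17 at an unadjusted p under 0.05. Shares of all tested genes are not given for an adjusted p under 0.01 or 0.10. The counts of 1 and 5 at these thresholds therefore cannot be set against a background. At an unadjusted p under 0.05, 37.0% of tested members were higher, against 8.17% of all tested genes. No member was lower in any setting. The median was 0.035 with length offsets, 0.033 with the replicate block and length offsets together, and 0.059 to 0.090 with 1 sample left out. With the replicate number as a block, 5 members were higher (PSMA4, PSMA7, PSMB1, PSMB9 and PSMD14). The numbers do not pair the samples by any source, and deviations of same-numbered samples correlated at -0.0090 over 12616 genes, so this count is not used. Over all tested genes, 512 were called without the block and 652 with it. DESeq2 called 109 genes higher and 72 lower, and limma 45 and 16 with a pseudocount of 1 and 53 and 18 with 0.1. Without control replicate 1 there were 104 higher and 67 lower, and without NP replicate 1 126 and 98, against 297 and 215.

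Some members changed sign between settings, none of them past the threshold. Most lay near 0, but PSMA2, with few reads, was at 0.31 on the log2 scale. PSMD5 was at -0.00029 with DESeq2, -0.0038 with library size only, and -0.0052 and -0.0055 with limma on log2(FPKM + 1) and log2(FPKM + 0.1). With length offsets PSMB5 was at -0.035 and PSMD6 at -0.028, and with the block added at -0.034 and -0.029. With 1 sample left out the ranges were -0.043 to 0.046 for PSMD5, -0.11 to 0.15 for PSMB5, -0.031 to 0.17 for PSMB10, -0.018 to 0.071 for PSMD3, -0.0045 to 0.038 for PSMD6, -0.10 to 0.023 for PSME4, -0.058 to 0.027 for PSMB2, -0.13 to 0.038 for PSMD13 and -0.29 to 0.80 for PSMA2. The cause was not tested. Of 615 values of named genes under other settings, 527 kept direction and side of the threshold, 61 no longer passed, 5 newly passed and 22 changed sign. Of the 39 named genes with a fitted value, only 10 passed in the main fit, and the 61 lost passes all come from these 10. With 2 samples per group, the 95% interval of the log2 fold change was 0.42 wide for PSMB10, a member with few counts, and 0.15 wide for PSMD3, one of the members with most.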
